A study of Mus musculus with 23 samples.

Results

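The comparison described here sets DC3 cells against DC1b cells, each taken by sorting from spleens of BALB/c animals labelled TLI. Its members are 8 of the 23 libraries of the series, chosen by their labels: the DC3 and the DC1b library of each of 4 pools of mice. Pools 1 and 2 belong to batch 1 of the labels and pools 3 and 4 to batch 2, so that each batch holds 2 libraries of each population. TLI is not spelled out in the labels; it is a usual abbreviation of total lymphoid irradiation.

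All mice were wild type BALB/c, and all libraries of the series come from sorted spleen cells. The labels describe DC3 as CD8- with low CD172 and DC1b as CD8 intermediate with CD172, the protein encoded by Sirpa. The other sorted populations are DC1a (CD8 high, CD172-) and DC2 (CD8 low, CD172 high), and the same 4 populations were sorted from 2 pools of untreated mice. Each library is a pool of mice, and mice of a pool cannot be told apart. The ages of the mice are not given in the sources used here.

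Conventional dendritic cells of the mouse spleen fall into a cDC1 lineage, which depends on the transcription factors Irf8 and Batf3 and is known for cross-presentation of antigen to CD8 T cells, and a cDC2 lineage, which carries CD172 and relies more on Irf4. Monocytes, macrophages and neutrophils share myeloid precursors with dendritic cells and are marked by lysozyme, Fc receptors and granule proteins. C/EBP factors such as Cebpb are known regulators of the myeloid granule and inflammatory genes.

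The 8 libraries held 21107794 to 36113735 estimated counts, with 13746 to 17857 genes over 3 counts. Across the tested genes, libraries of the same population and batch correlated at r = 0.694 to 0.791, libraries of the other population in the same batch at 0.631 to 0.78, and libraries of the same population in the other batch at 0.614 to 0.688. Levels are given as CPM, a gene's count as a share of its library total, scaled to a common size, and log2 fold changes are DC3 minus DC1b throughout. In bulk libraries, fewer cells of a type and less RNA per cell cannot be told apart.

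The markers of the sort were measured first, and being what the sort used they are a description. Cd8a stood at 302, 342, 79.0 and 0.327 CPM in DC1b pools 1 to 4 and at 5.07, 6.46, 2.67 and 0.228 CPM in DC3. Cd8a was thus near 0 in the library labelled DC1b pool 4, against its label of intermediate CD8. Sirpa stood at 146, 141, 5.10 and 6.55 CPM in DC1b and at 0.521, 5.02, 1.12 and 6.24 CPM in DC3, so that the populations were apart in batch 1 and met in batch 2. The count of calls is therefore given below with and without DC1b pool 4.

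DC3 cells had far lower levels of neutrophil granule, monocyte and macrophage genes than DC1b cells of the same mice, and few genes were higher in DC3. Of 13253 tested genes, 64 passed an adjusted p of 0.05 in edgeR's quasi-likelihood test with batch as a term, or 0.483% of the genes tested. Of these, 60 were lower in DC3 (0.453% of the genes tested) and 4 were higher (0.0302%). In 59 of the 60 the 4 DC3 libraries all lay below the 4 DC1b libraries, and all 64 moved the same way in 4 of 4 pools. Over all tested genes, 455 (3.43%) lay without overlap lower in DC3 and 365 (2.75%) higher.

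With the pool as a block, 0 genes passed the threshold, against 1153 at an unadjusted p under 0.05. The adjusted p of the 64 genes then lay between 0.056 and 0.297, and each of the 64 had an unadjusted p of at most 0.00613. DESeq2 called 723 genes (5.46%), the 64 among them. At an unadjusted p under 0.05, 5.11% of the tested genes were lower in DC3 and 3.21% higher, and 50.4% of all tested genes had a fitted log2 below 0. Without DC1b pool 4, 22 genes were called, without DC1b pool 1 or pool 2 16 each, without DC3 pool 2 28, without DC3 pool 1 37, without DC3 pool 3 19, without DC1b pool 3 33, and without DC3 pool 4 0; the direction of the 64 was the same in each of these fits.

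**Figure D1:**
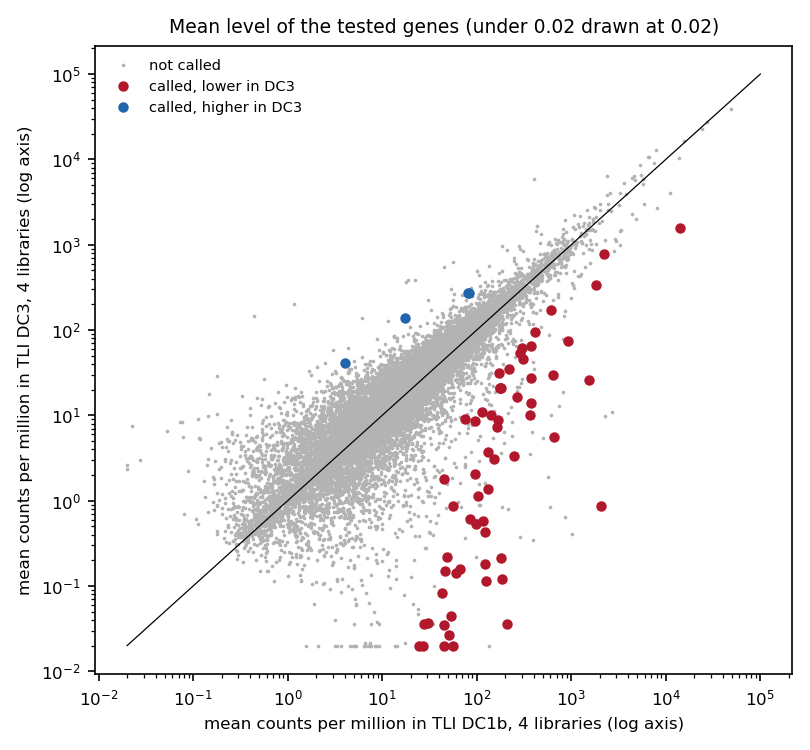
Mean CPM of each tested gene in the 4 TLI DC1b libraries (x axis) and the 4 TLI DC3 libraries (y axis), both on log axes, with the 60 genes called lower and the 4 called higher in DC3 in colour. The genes called lower reach from Lyz2, at a mean of 14141 CPM in DC1b, down to genes listed at 0 in DC3.

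Neutrophil granule genes were nearly absent from DC3. Elane, the gene of neutrophil elastase (chromosome 10, 79886247 to 79888215, GRCm38), stood at 505, 75.7, 51.6 and 202 CPM in DC1b pools 1 to 4 and at 0.142, 0, 0 and 0 CPM in DC3. All 4 DC3 values lay at or under the floor of 3 counts. The DC3 level was at least 1469-fold lower in the mean (log2 -12.84 ± 1.40 SE, n = 4 pools, edgeR adjusted p = 0.0158). Such bounds, here and below, set the mean of the 4 DC1b libraries against the highest floor of a DC3 library. Within a single pool the bound can be smaller. Ngp, neutrophilic granule protein, stood at 7397, 353, 97.8 and 376 CPM in DC1b and at 1.80, 1.22, 0.105 and 0.313 CPM in DC3, a 2393-fold difference of the means (log2 -10.91 ± 1.33 SE, adjusted p = 0.0194). Pool 1 of DC1b was far above the other pools, and the groups did not overlap.

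Mmp8, neutrophil collagenase, was at 24.0, 63.0, 7.12 and 14.5 CPM in DC1b and at 0 in the 4 DC3 libraries, at least 191-fold lower in the mean. Fcnb, the ficolin of neutrophil and monocyte granules, was at 122, 6.05, 28.3 and 48.9 CPM in DC1b, with no DC3 library above 0.105 CPM, at least 361-fold lower. Fpr2, a formyl peptide receptor that guides neutrophils and monocytes, was at 102, 13.5, 55.7 and 54.9 CPM in DC1b and at 0 in DC3 (adjusted p = 0.0498 in edgeR's test). Of these genes, Fpr2 shares exon sequence on the annotation with Fpr3.

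Of 18 neutrophil markers listed, 10 passed the filter on low counts and 3 were called lower, beside 0.453% of all tested genes. The median log2 of the 10 was -9.86, or -8.76 with floor genes at their bounds, beside -0.0072 over all tested genes. A gene absent from DC3 passes that filter through DC1b. Camp, the cathelicidin gene, was at 2979.8, 285, 111 and 672 CPM in DC1b and at most 1.22 CPM in DC3, and missed the threshold (edgeR adjusted p = 0.0517). S100a8 and S100a9, the calprotectin subunits, were at adjusted p = 0.118 and 0.0968 in edgeR's test. In the study's staining of untreated spleen, the gate for dendritic cells left out cells stained with Gr-1, an antibody that binds neutrophils. The paper says that the cells for RNA sequencing were sorted by those gates, but its methods do not list Gr-1 among the antibodies for sorting. Whether neutrophils were carried into the sorted cells was not tested. Summed over the list, DC1b held 1608 to 22410 CPM and DC3 3.99 to 95.0 CPM.

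Monocyte and macrophage genes were the larger group. F13a1, coagulation factor XIII A chain of monocytes and macrophages, was at 63.5, 51.1, 39.5 and 23.9 CPM in DC1b and at 0, 0, 0.0703 and 0 CPM in DC3, at least 313-fold lower (edgeR adjusted p = 0.0158). Ace, angiotensin-converting enzyme of patrolling monocytes, was at 38.4, 37.8, 233 and 185 CPM in DC1b and at 0.569, 0.111, 0.422 and 0.626 CPM in DC3 (log2 -7.89 ± 0.76 SE). Lyz2, the macrophage lysozyme, was at 18205, 23476, 7986 and 6898 CPM in DC1b and at 1525, 3063, 824 and 908 CPM in DC3, an 8.95-fold difference of the means. Lyz2 was chosen after its values were seen, and reads can be split between it and its close copy Lyz1, which also fell.

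Fcgr4 and Fcgr3, Fc receptors that bind IgG, fell by 7.07 and 6.19 on the log2 scale. Vcam1, an adhesion molecule of splenic red pulp macrophages, was at 214, 115, 55.8 and 28.8 CPM in DC1b and at 3.84, 0.111, 0.281 and 0.285 CPM in DC3. Cebpb, a C/EBP transcription factor, was at 164, 538, 204 and 148 CPM in DC1b and at 32.4, 23.9, 6.78 and 2.82 CPM in DC3 (log2 -4.55 ± 0.61 SE, edgeR adjusted p = 0.0274). All 4 genes were without overlap between the populations.

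Of 24 monocyte and macrophage markers listed, 23 were tested and 6 were called lower, beside 0.453% of all tested genes. The median log2 of the 23 was -5.30. The defining markers Csf1r, Adgre1, Spic and C1qc were not called, at adjusted p = 0.128, 0.306, 0.0739 and 0.12 in edgeR's test. Ccr2, the chemokine receptor of classical monocytes, went the other way, at 112, 144, 110.5 and 307 CPM in DC1b and 163, 400.4, 462 and 477 CPM in DC3, with the higher value in DC3 in 4 of 4 pools (log2 1.00, edgeR unadjusted p = 0.0359, adjusted p = 0.547). It was the 1 tested marker of the list with a log2 above 0. Csf1r was at 120.5 to 394 CPM in DC1b and 1.71 to 19.3 CPM in DC3. Over the whole list the summed level was 9383 to 29340 CPM in DC1b and 1699 to 5433 CPM in DC3.

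**Figure D2:**
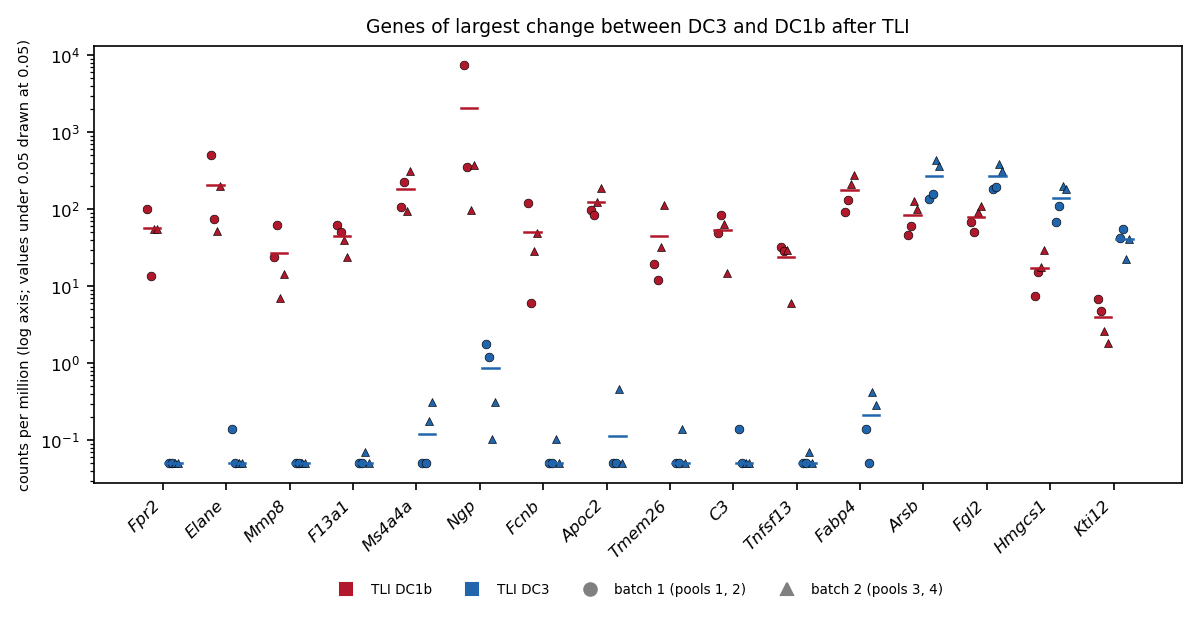
CPM in each library (log axis, values under 0.05 drawn at 0.05) for the 12 genes of largest decrease and the 4 genes called higher in DC3; bars are the mean of 4 libraries, red is DC1b and blue is DC3, circles are batch 1 and triangles batch 2. For each gene shown the 2 populations do not overlap.

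Of 35 Fc receptors and paired activating or inhibitory receptors that were tested, 8 were called lower in DC3, beside 0.453% of all tested genes. The other 27 were not called, and 3 of the 35 had a log2 above 0. Pilra, an inhibitory paired receptor, stood at 171, 180.1, 115 and 58.5 CPM in DC1b and at 1.94, 2.14, 0.527 and 0.911 CPM in DC3, a 95.0-fold difference (log2 -6.79 ± 0.45 SE, adjusted p = 0.00544 in edgeR's test, 0.0607 with the pool block). Lilra5 and Cd300ld, activating receptors, fell by 9.44 and 8.05 on the log2 scale. The list held 45 receptors, and the median log2 of those tested was -2.71. Without overlap 18 were lower in DC3 and 1, Cd22, which is also on the B-cell list, higher, beside 3.43% and 2.75% of all tested genes. Sirpb1b and Sirpb1c, both lower, are near-identical copies and their split of reads is uncertain.

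Among the other genes called lower, Ms4a4a, a membrane protein of macrophages, was at 107, 227, 94.1 and 312 CPM in DC1b and at 0, 0, 0.176 and 0.313 CPM in DC3. Fabp4, a fatty acid binding protein, was at 92.4, 134, 212 and 282 CPM in DC1b against at most 0.422 CPM in DC3. Complement C3 was at least 378-fold lower in DC3, and Apoc2, an apolipoprotein, fell by 10.64 on the log2 scale. The groups did not overlap for any of them.

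Tnfsf13, the cytokine APRIL, was at least 171-fold lower in DC3, and overlaps the antisense gene Tnfsf13os, from which an unstranded library cannot separate it. Tmem26, a membrane protein, fell by 10.56 on the log2 scale. Tlr8, a sensor of single-stranded RNA, and Clec4e, a lectin that recognises mycobacterial glycolipid, fell by 9.78 and 8.45. Among 28 tested pattern recognition receptors these 2 were the ones called, beside 0.453% of all tested genes called lower. Without overlap 6 lay lower in DC3 and 1, Tlr11, which recognises profilin, higher, beside 3.43% and 2.75% of all tested genes.

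Of 18 chemokines tested, 2 were called lower in DC3, and of 21 migration receptors tested, 3 were, beside 0.453% of all tested genes. Ccl6, a chemokine of myeloid cells, stood at 526, 529, 641 and 769.5 CPM in DC1b and at 110.0, 109, 250.2 and 225 CPM in DC3, a 3.55-fold difference, and Ccl9 at 138 to 208 CPM against 16.5 to 28.2 CPM. Ccr3, the eotaxin receptor, was at 179, 36.7, 4.93 and 5.33 CPM in DC1b and at most 2.18 CPM in DC3. Ccrl2, which binds chemerin, fell by 3.08 on the log2 scale and Clec4a1, a lectin, by 4.44. No gene of either list was called higher. The median log2 was -2.24 over the chemokines and -0.028 over the receptors, of which 10 had a log2 above 0 and 11 below. Without overlap 9 chemokines lay lower in DC3 and 0 higher, and 4 receptors lay lower and 1, Gpr183, higher. Over all tested genes these shares were 3.43% lower and 2.75% higher.

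Tgfbr1, the type I receptor of TGF-beta, stood at 33.4, 46.8, 246 and 366 CPM in DC1b and at 10.8, 11.7, 48.5 and 53.9 CPM in DC3. It is the 1 called gene whose groups overlapped, with higher values in batch 2 than in batch 1 in both populations, and its fall of 2.35 on the log2 scale held within each pool. Ctss, the protease that trims the invariant chain of MHC class II, fell by 1.67, at 1718 to 3261 CPM in DC1b against 589 to 1101 CPM in DC3. It was the 1 called gene of 19 tested in MHC class II presentation, beside 0.453% of all tested genes called lower. The median log2 of the 19 was -0.24.

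**Figure D3:**
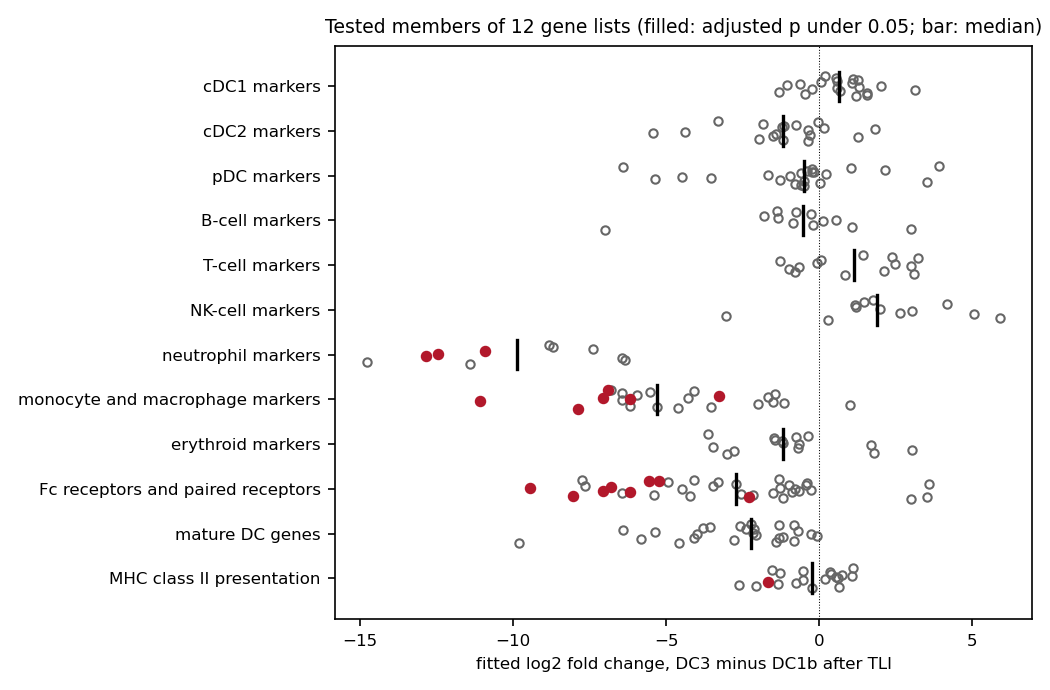
Fitted log2 fold change, DC3 minus DC1b after TLI, of each tested member of 12 gene lists; filled circles passed an adjusted p of 0.05, and the bar is the list's median. The neutrophil and the monocyte and macrophage lists lie to the left at medians of -9.86 and -5.30, and the cDC1 list lies near 0 at 0.64.

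Among the 4 genes higher in DC3, Hmgcs1, the enzyme that makes HMG-CoA for sterol synthesis, stood at 7.54, 15.3, 17.6 and 29.2 CPM in DC1b and at 67.7, 111, 198 and 181 CPM in DC3, an 8.01-fold difference (log2 2.85 ± 0.35 SE, edgeR adjusted p = 0.0208). Fgl2, fibrinogen-like protein 2, was at 50 to 111 CPM in DC1b and 181 to 390.5 CPM in DC3. Arsb, the lysosomal arylsulfatase B, was at 46.1 to 128 CPM in DC1b and 136 to 442 CPM in DC3, and Kti12, a protein of tRNA modification, at 1.82 to 6.93 and 22.9 to 55.6 CPM. The groups did not overlap for any of the 4 genes, and all rose in 4 of 4 pools.

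The other enzymes of sterol synthesis were looked at after Hmgcs1 was seen. Of 20 such genes tested, 18 had a log2 above 0 and 1, Hmgcs1, was called, with a median log2 of 1.40. Without overlap 5 lay higher in DC3, beside 2.75% of all tested genes. Srebf2, the transcription factor that drives these genes, was at 13.7 to 25.6 CPM in DC1b and 45.5 to 66.4 CPM in DC3, without overlap and not called (adjusted p = 0.197 in edgeR's test).

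Gene groups that answer radiation, interferon or death signals held no called gene. Of 29 tested p53 targets, 0 were called, 2 were higher and 2 lower at an unadjusted p under 0.05, and the median log2 was -0.18. Of 44 type I interferon-stimulated genes 0 were called, with a median of -0.42, and 2 lay without overlap higher in DC3. Another 6 lay without overlap lower in DC3: Ifitm3, Rtp4, Zbp1, Ddx60, Ifit1 and Ifit3. Of 19 tested BCL2 family genes 3 lay without overlap lower, the paralogs Bcl2a1a, Bcl2a1b and Bcl2a1d, whose split of reads is uncertain. Of 24 genes of MHC class I and peptide loading 1, B2m, the light chain of class I, lay without overlap lower, and the median was -0.05. Of 17 cytokines 3 did so, Il27, Il12b and Osm. These genes were named after their values were seen. Over all tested genes, 3.43% lay without overlap lower in DC3 and 2.75% higher. At an unadjusted p under 0.05 in edgeR's test, 5.11% were lower and 3.21% higher.

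The promoter windows of Ngp and Hmgcs1 are printed because Ngp had the highest mean level in DC1b of the 12 largest decreases and Hmgcs1 is the called sterol gene. RefSeq windows on GRCm38.p6 run from 250 bases before the start of the gene to 50 after it. Capitals mark TTGCNNAA, a C/EBP pattern, in the Ngp window and TCACNCCAC, a sterol regulatory element, in the Hmgcs1 window, each searched on both strands.
Ngp, chr9:110419558-110419857, plus strand: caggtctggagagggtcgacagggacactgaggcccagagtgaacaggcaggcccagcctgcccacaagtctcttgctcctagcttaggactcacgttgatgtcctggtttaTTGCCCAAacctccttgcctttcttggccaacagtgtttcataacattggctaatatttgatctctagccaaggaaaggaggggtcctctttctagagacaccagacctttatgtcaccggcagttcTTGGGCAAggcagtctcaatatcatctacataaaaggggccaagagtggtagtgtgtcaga
Hmgcs1, chr13:119690101-119690400, plus strand: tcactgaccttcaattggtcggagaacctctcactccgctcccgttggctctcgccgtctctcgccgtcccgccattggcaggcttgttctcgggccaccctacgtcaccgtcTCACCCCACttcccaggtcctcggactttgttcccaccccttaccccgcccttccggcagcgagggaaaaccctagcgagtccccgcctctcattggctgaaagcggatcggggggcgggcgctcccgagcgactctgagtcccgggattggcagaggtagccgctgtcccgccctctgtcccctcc
The Ngp window held 2 matches and the Hmgcs1 window 1, while those of Elane and Lyz2 held none of the C/EBP pattern. It was present in the windows of 12.2% of 27025 genes and in 11 of the 46 genes called lower that had a window, or 23.9%. The sterol pattern was present in 1.44% of all genes and in 1 of the 4 called higher. A match is a description of letters only.

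No cDC1 gene was called in either direction, and several had higher values in DC3. Irf8 stood at 224, 369, 191 and 59.4 CPM in DC1b and at 515, 1123, 1004 and 787 CPM in DC3, without overlap, at a log2 of 2.00 ± 0.49 SE that missed the threshold (edgeR adjusted p = 0.178). Batf3, its partner, was at 45.6 to 141 CPM in DC1b and 146 to 220.3 CPM in DC3 (adjusted p = 0.332 in edgeR's test). Of 20 cDC1 markers tested, 0 were called, 15 had a log2 above 0 and 5 below it, Itgae and Ly75 among the 5. In edgeR's test 7 had an unadjusted p under 0.05, each with the higher level in DC3, beside 3.21% of all tested genes. In CPM, DC3 lay without overlap higher in 6 of the 20 markers, beside 2.75% of all tested genes. They were Irf8, Batf3, Clec9a, Tlr11, Ifi205 and Cd24a. With the library scaling of the test, Batf3 was higher in DC3 in 3 of 4 pools, with a log2 of -0.047 in pool 2.

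Xcr1, the chemokine receptor that marks cDC1, was at 149 to 336 CPM in DC1b and 185 to 453 CPM in DC3, which overlapped. Irf4, which marks cDC2, was at 22.5, 44.98, 0.720 and 1.79 CPM in DC1b and at 20.99, 2.84, 10.7 and 0.199 CPM in DC3, which overlapped. Of 18 cDC2 markers tested 0 were called, at a median log2 of -1.17. The summed cDC1 markers were at 3659 to 6518 CPM in DC1b and 7247 to 12840 CPM in DC3, and at 11210 to 23440 CPM in the DC1a libraries of the same mice.

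**Figure D4:**
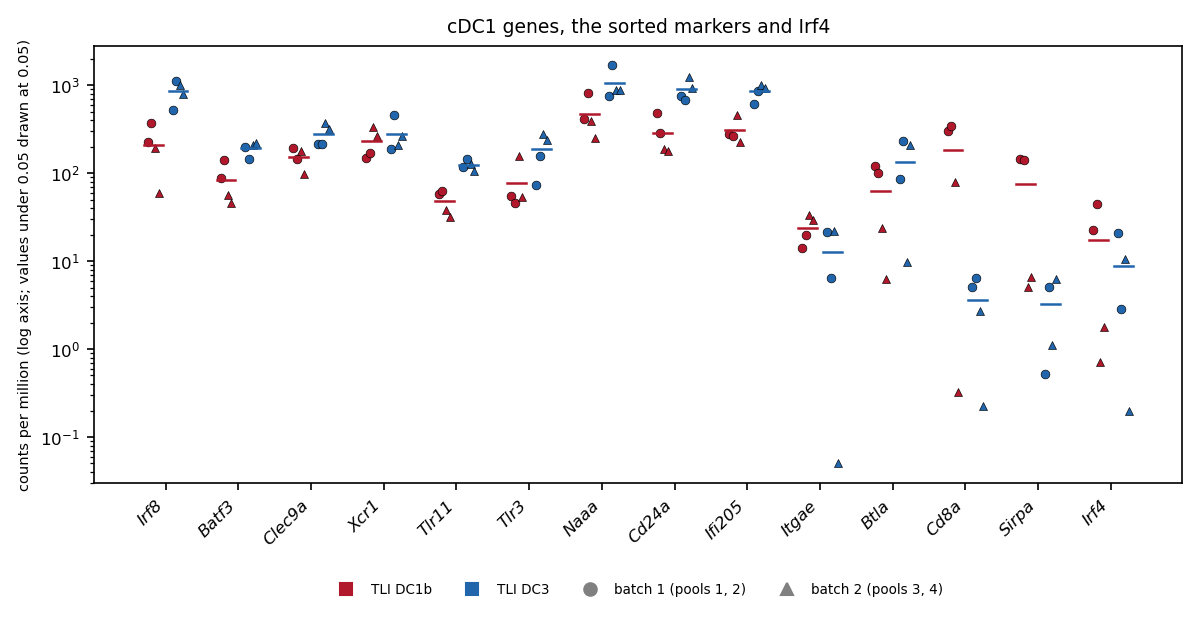
CPM in each library (log axis, values under 0.05 drawn at 0.05) of cDC1 genes, the sorted markers Cd8a and Sirpa, and Irf4; red is DC1b, blue is DC3, bars are means of 4 libraries, circles are batch 1 and triangles batch 2. Irf8 lies at 515 to 1123 CPM in DC3 and 59.4 to 369 CPM in DC1b, and Cd8a of DC1b pool 4 lies at 0.327 CPM.

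Markers of other lineages were uneven between the libraries, with the NK-cell and erythroid lists highest in DC3 pool 1. Ncr1, an activating receptor of NK cells, was at 38.3, 33.4, 0 and 0 CPM in DC1b and at 1112, 340.5, 0 and 0 CPM in DC3. Summed over 18 NK-cell markers listed, DC1b pools 1 to 4 held 694.9, 337, 163.6 and 160.5 CPM and DC3 held 5120, 1554, 270.6 and 462 CPM, the higher sum in DC3 in 4 of 4 pools. Of the 12 tested, 0 were called, 11 had a log2 above 0, and the median log2 was 1.88. In edgeR's test 5 had an unadjusted p under 0.05 with the higher level in DC3, beside 3.21% of all tested genes. Hba-a1, alpha globin, reached 45168 CPM in DC3 pool 1. B-cell markers gave 7199 to 46130 CPM in DC1b and 11560 to 55210 CPM in DC3, largely from Igkc. Their part in the calls was not tested.

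The difference between DC3 and DC1b was next compared between batches. In the test of batch 2 against batch 1, 0 genes passed an adjusted p of 0.05 in edgeR and 784 had an unadjusted p under 0.05, or 5.92% of the genes tested, while DESeq2 called 339. Of the 64 called genes 11 had an unadjusted p under 0.05 there. One of the 11 was Fcgr4, at a log2 of -5.20 within batch 1 and -9.04 within batch 2 (edgeR unadjusted p = 0.000815, adjusted p = 0.498). Hmgcs1 was at 2.91 and 2.87, and Irf8, which was not called, at 1.31 and 2.87.

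The same populations of 2 pools of untreated mice gave the comparison without TLI. Of 17573 tested genes, 10 were lower (0.0569%) and 2 higher (0.0114%) in untreated DC3, by edgeR's test with a batch term over 12 libraries. The genes called lower in both were Pilra, Ms4a6d, Fabp4, Tgfbr1, Cybb and Fcgr4, which is 6 of the 60 after TLI and 6 of the 10 in untreated mice, and Arsb was called higher in both. Of the 60 genes called lower after TLI, 52 had an untreated log2 below 0 and 39 of them an unadjusted p under 0.05 in edgeR's test. Of all genes tested in untreated mice, 4.39% had that in the same direction. This fit takes its spread in part from the TLI libraries by which the 60 were selected, so these p-values are not an independent repeat. With the pool block 0 genes were called in the untreated comparison.

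The granule genes were low in untreated cells of both populations. Ngp was at 6.83 and 0.320 CPM in untreated DC1b and at 0 in untreated DC3. Elane was at 0.188 and 0 CPM in untreated DC1b and at 0 in untreated DC3, and Mmp8 and Fcnb were at 0 in the 4 libraries. F13a1 was at 0 and 0.160 CPM in untreated DC1b and at 0.819 and 0.274 CPM in untreated DC3. The neutrophil markers summed to 2.24 to 24.3 CPM in untreated DC1b and to 0.431 to 61.4 CPM in untreated DC3, against 1608 to 22410 CPM in DC1b after TLI. The untreated libraries are all of batch 1, so the values of batch 2 have no untreated counterpart.

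In the test of the difference itself, TLI minus untreated, 0 genes passed an adjusted p of 0.05 in edgeR and 1246 had an unadjusted p under 0.05, or 7.09%, while DESeq2 called 532. Of the 64 genes, 28 had an unadjusted p under 0.05. The 64 were selected by the TLI libraries that also enter this test. That count is therefore a description and cannot be set against the share over all genes. Lyz2 was at 1929 and 3169 CPM in untreated DC1b and at 1367 and 2585 CPM in untreated DC3, and its interaction log2 was -2.97 (edgeR adjusted p = 0.197). Irf8 was at 1079 and 875 CPM in untreated DC1b and at 930.3 and 895 CPM in untreated DC3, which overlapped. Markers of plasmacytoid dendritic cells, which also express Irf8, summed to 10010 to 13760 CPM in untreated DC1b and to 732.3 to 1441 CPM in untreated DC3, against 770.7 to 1267 CPM in DC1b and 467.5 to 570.1 CPM in DC3 after TLI. Siglech, a defining marker of those cells, was at 1160 and 1858 CPM in untreated DC1b and at 0.268 to 31.2 CPM in DC1b after TLI. The median log2 of the 22 tested markers was -3.83 in untreated mice and -0.50 after TLI, and their part in the untreated and the TLI minus untreated comparisons was not tested.

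**Figure D5:**
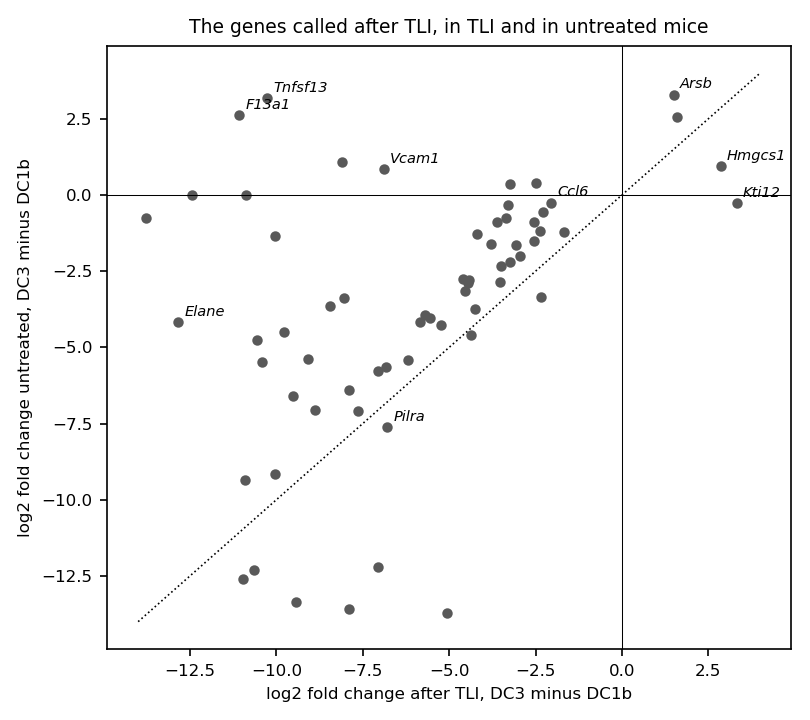
Fitted log2 fold change of DC3 minus DC1b after TLI (x axis) and in untreated mice (y axis) for the 64 called genes; the dotted line marks equal values. Arsb and Pilra lie on the same side of 0 in both, and F13a1 and Tnfsf13 lie below 0 after TLI and above 0 in untreated mice, where their counts are near 0.

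The other TLI populations place the 60 genes called lower. Their mean level in DC1a was below that in DC1b for 60 of 60, and DC2 was below DC1b for 37. Their mean level in DC3 was below that in DC2 for 60 of 60 and below that in DC1a for 26. The 60 genes were selected by high DC1b and low DC3 values. These counts use the same values, so they are a description only, and no share over all genes was taken. Pilra was at 0.217 to 2.39 CPM in DC1a and 62.4 to 205 CPM in DC2, and Ms4a4a at 0 to 0.487 CPM and 184 to 274 CPM. Elane was at 0 in the DC1a libraries and at 0.138 to 25.3 CPM in DC2. These levels were compared without a test.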

How the data were processed

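RNA of sorted cells was amplified with a SMART-Seq v4 kit. Per the labels the authors used Trimmomatic, HISAT2 and StringTie on GRCm38, and the deposited values are estimated counts per gene, whole numbers not scaled for depth, with replicates not pooled further; StringTie's conversion of coverage into counts can split reads between similar genes, and the kit does not mark strand. Symbols and positions are from GENCODE M21 on GRCm38, which held 47310 of 47729 identifiers. Genes were filtered with filterByExpr and tested with edgeR 4.0.16 in R 4.3.3 (TMM, quasi-likelihood, Benjamini-Hochberg adjustment at 0.05, two-sided) with batch and population, and DESeq2 1.42.0 was an alternative. The pool is shared by the DC3 and DC1b libraries of the same mice, so the pool block is a paired fit; deviations of same-pool libraries correlated over genes at 0.184 in batch 1 and 0.00393 in batch 2. The floor is 3 counts per library, and counting error only is covered by it. Named genes were the 12 largest called changes in each direction with a mean of at least 5 CPM, the study's stained and gate markers, up to 4 called members of each list per direction, and the defining markers of other cells, of which 1 is not reported here. Members and lists were chosen with earlier results of these data known. Nothing says that pools of a group are more than separate pools, so p-values measure the spread between these pools. Scripts were tested on data simulated from edgeR's own estimates of spread, without batch or pool effects. There DESeq2 made more false calls than edgeR and also found more of the true changes. That setting is unlike the data, so it cannot decide between their counts of calls.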

Additional observations from a re-analysis of the deposited data

Results flagged for a closer look

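In 23 of 175 groups of 4 libraries that were looked at, 1 library stood apart from the other 3 by Dixon's 95% criterion. Chance meets it in about 1 of 20 groups of independent, normally spread values. CPM near 0 and genes that move together are not such values, so 23 of 175 cannot be set against that rate. In DC3 pool 3 this was Tmem26 at 0.141 CPM, Apoc2 at 0.457 CPM, Ly75 at 47.8 CPM. In DC1b pool 1 this was Ngp at 7397 CPM, Cd3e at 17.8 CPM. In DC1b pool 2 this was Cebpb at 538 CPM, Cd1d1 at 190 CPM, Cd40 at 47.2 CPM, the summed cDC2 markers at 2586 CPM. In DC3 pool 4 this was Tlr8 at 0.142 CPM. In DC1b pool 4 this was Tnfsf13 at 6.07 CPM, Ccr2 at 307 CPM. In DC3 pool 1 this was Vcam1 at 3.84 CPM, S100a9 at 34.8 CPM, S100a8 at 37.1 CPM, Gzma at 1330 CPM, Hba-a1 at 45168 CPM, the summed neutrophil markers at 95 CPM, the summed erythroid markers at 134800 CPM. In DC3 pool 2 this was Naaa at 1674 CPM, H2-Ab1 at 18994 CPM. In DC1b pool 3 this was Tlr3 at 158 CPM, Ptprc at 2049 CPM. Only the 82 named genes were looked at for a turn of direction between TLI and untreated pools. In 4 of them the DC3 libraries lay on one side of the DC1b libraries in 4 of 4 pools after TLI. They lay on the other side in 2 of 2 untreated pools. The TLI minus untreated difference in log2 was -13.71 for F13a1 (edgeR unadjusted p = 0.000145, adjusted p = 0.197). The TLI minus untreated difference in log2 was 3.56 for Kti12 (edgeR unadjusted p = 0.0424, adjusted p = 0.691). The TLI minus untreated difference in log2 was 4.52 for Cd7 (edgeR unadjusted p = 8.53e-06, adjusted p = 0.075). The TLI minus untreated difference in log2 was -1.87 for Itgax (edgeR unadjusted p = 0.00219, adjusted p = 0.567). None of the 4 passed the adjusted threshold. Cd7 was at 204, 284, 56.0 and 30.2 CPM in DC1b and 564, 472, 133 and 149 CPM in DC3 after TLI, and at 786 and 1299 CPM in untreated DC1b and 104 and 112 CPM in untreated DC3.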

How the results depend on the processing

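The count of called genes after TLI, 64 by the fit described, was 551 without a filter, 723 by DESeq2, 168 with all 15 TLI libraries, 0 with batch 1 alone, 0 with batch 2 alone and 0 with the pool as replicate block, and lay between 0 and 37 with a library left out. Size factors of DESeq2's kind gave 66 (61 of the 64), a minimum of 10 counts in every library 95, and no batch term 44. The difference between batches, 0 by edgeR, was 237 without a filter, 339 by DESeq2 and 0 to 0 with a library left out. The untreated count of 12 was 324 without a filter, 44 with at least 10 counts in every library, 860 by DESeq2, 77 with all 23 libraries, 0 with the pool block and 0 to 15 with a library left out. The TLI minus untreated count of 0 was 2 with those size factors, 211 without a filter, 1 with at least 10 counts in every library, 532 by DESeq2, 4 with all 23 libraries and 0 to 2 with a library left out. With the pool block the direction of each of the 64 called genes was the same. The cause of these shifts was not tested. Among the 82 named genes, those whose log2 fold change turned sign, none of them called, were as follows. Btla (1.57) took -0.076 to 2.07 with a library left out. Ptprc (-0.81) took 0.27 with batch 1 alone. Hba-a1 (-1.20) took 0.64 with no batch term, 0.77 with batch 1 alone. Itgam (-1.21) took 0.41 with batch 2 alone. Igkc (-0.27) took -0.55 to 0.39 with a library left out. Tcf4 (-0.22) took -0.56 to 0.0088 with a library left out, 0.35 with batch 2 alone. Cd3e (-0.65) took -1.73 to 0.77 with a library left out, 0.85 with no batch term, 0.12 with pool as replicate block, 0.86 with batch 1 alone. Xcr1 (0.18) took -0.24 to 0.43 with a library left out (-0.014 between), -0.51 with batch 2 alone. Ly6d (0.22) took -0.30 to 0.51 with a library left out (-0.015, -0.26 between), -0.018 with pool as replicate block. Siglech (-0.40) took -1.29 to 0.094 with a library left out, 0.96 with batch 2 alone. Cd79a (-0.19) took -0.48 to 0.60 with a library left out, 0.073 with pool as replicate block, 0.19 with batch 1 alone. Irf4 (0.15) took -1.97 to 0.97 with a library left out (-0.58, -0.29 between), -1.10 with no batch term, -1.31 with pool as replicate block, -0.50 with all 15 TLI libraries, -1.52 with batch 1 alone. Calls rest on 4 pools a side; with a lone pair per batch in part of the leave-out fits, the remaining library is assumed to vary like the others.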

Other observations

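Among genes of migration and maturation none of those given here was called. Gpr183, an oxysterol receptor that positions dendritic cells in the spleen, stood at 72.1, 107, 120.0 and 46.8 CPM in DC1b and at 286, 464, 244 and 247 CPM in DC3, without overlap (edgeR adjusted p = 0.139). Of 25 mature dendritic cell genes tested, 0 were called, and the median log2 was -2.22. In edgeR's test 11 had an unadjusted p under 0.05 with the lower level in DC3, beside 5.11% of all tested genes. Of 58 cell cycle genes, 0 were called and 6 had an unadjusted p under 0.05, each with the higher level in DC3, beside 3.21% of all tested genes. Of 73 genes of the respiratory chain, 0 were called, with a median log2 of -0.06.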
